A study of Mus musculus with 16 samples.

Results

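Amino acid transporters of the solute carrier families Slc1, Slc3, Slc7, Slc36, Slc38, and Slc43 were examined in CD11b+ brain cells of malnourished mice. Genes were taken by symbol from the deposited count table, leaving out the glial glutamate transporters Slc1a2 and Slc1a3 and the cystine transporter Slc7a11, and were kept when more than 10 counts were present in at least 4 of 16 libraries. This rule selected 29 of the 14565 genes tested, out of 40 table rows with such names. The symbol pattern also matched Slc7a6os, a gene named for its position opposite Slc7a6 that encodes no transporter, so 28 of the 29 genes are carriers or carrier subunits. Slc43a3, although placed in an amino acid transporter family, is best known as a carrier of purine nucleobases.

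Libraries came from female C57BL/6J mice that were placed on a diet at weaning and kept on it for 1 month. CON mice (4 libraries) were fed standard chow and MAL mice (5 libraries) an isocaloric diet low in protein and fat. MAL-BG mice (7 libraries) were fed the MAL diet and in addition were gavaged with a mixture of E. coli and Bacteroidales bacteria, while the other mice were gavaged with PBS. Every library was made from cells enriched with CD11b beads, so the CD11b+ fraction is a preparation and not a pure cell type. The labels name cortical tissue, while the study's methods name whole cerebra. No group on standard chow was gavaged with bacteria, so a difference between MAL-BG and CON holds diet and bacteria together, and a difference between MAL-BG and MAL holds the bacterial gavage on the low-protein diet. Nothing in the labels ties libraries to cages, so p-values measure the spread between these libraries.

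Amino acids enter and leave cells through carriers that differ in substrate and in driving force. Exchangers of the Slc7 family pair with the heavy chain Slc3a2 and swap one amino acid for another, sodium-coupled carriers of the Slc1 and Slc38 families accumulate glutamate, glutamine, alanine, or serine, and Slc43 and Slc36 carriers move neutral amino acids by facilitated diffusion or with protons. In the brain, these carriers supply essential amino acids across the vessel wall and cycle glutamate and glutamine between astrocytes and neurons. Members of the Slc36 and Slc38 families also sit on lysosomes, where amino acids released from degraded protein are exported and sensed by mTORC1.

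The libraries held 10312703 to 13461574 counts in CON, 10864121 to 12819982 in MAL, and 14191791 to 18705202 in MAL-BG, so each MAL-BG library was deeper than each of the others. Of the 29 genes, 27 had more than 10 counts in all 16 libraries. Slc43a1 did so in 15 and Slc7a3 in 13, the members closest to the limit, and Slc7a14 missed it with 3 libraries above 10 counts (90 counts in all). The other 10 unselected rows were Slc38a4 with 52 counts over 16 libraries, Slc3a1 with 45, Slc7a15 with 41, Slc1a6 with 21, Slc7a13 with 16, Slc36a3 with 9, Slc38a8 with 8, Slc1a7 with 5, Slc7a9 with 1, and Slc7a12 with 0. Values per library are given as CPM, counts brought to a common library total with TMM scaling, and levels of different genes were compared only as CPM per kilobase of exon.

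Markers of the enriched cells and of other brain cells differed between the groups. The summed CPM of 14 microglia markers was 19065 to 30731 in CON, 19589 to 33346 in MAL, and 40676 to 55315 in MAL-BG, where 9 of the 14 were called higher. Choroid plexus markers summed to 14046 to 54475 CPM in CON, 6520 to 42867 in MAL, and 1783 to 16684 in MAL-BG, with 12 of 12 called lower against CON. Neuron markers (11 of 12 lower), astrocyte markers (6 of 10 lower), and ependyma markers (7 of 8 lower against CON) also fell. In contrast, 11 of 11 measured neutrophil markers and 4 of 7 tested lymphocyte markers rose against CON. Lymphocyte markers summed to 24.3 to 44.7 CPM in CON, 30.8 to 52.0 in MAL, and 55.6 to 99.9 in MAL-BG. Of 10 oligodendrocyte markers, 3 were called higher and 2 lower against CON. Over all genes tested, 11.4% were called higher and 21.7% lower against CON. Early response genes, which cells switch on within minutes of a stimulus such as handling, were called lower in MAL-BG for 7 of 12 against CON and 10 of 12 against MAL, and summed to 21445 to 42775 CPM in CON, 23151 to 49190 in MAL, and 10115 to 28030 in MAL-BG. Within their groups, CON library 1 and MAL library 4 were lowest in neuron, astrocyte, choroid plexus, ependyma, endothelium, and mural markers and highest in microglia and early response markers. Within MAL-BG, library 3 was highest in endothelium (4418 CPM), mural, choroid plexus, ependyma, astrocyte, neuron, and oligodendrocyte markers and lowest in microglia markers. MAL-BG library 5 was highest in neutrophil markers (13686 CPM). In bulk libraries such as these, fewer cells of a type and less RNA per cell cannot be told apart.

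**Figure D1:**
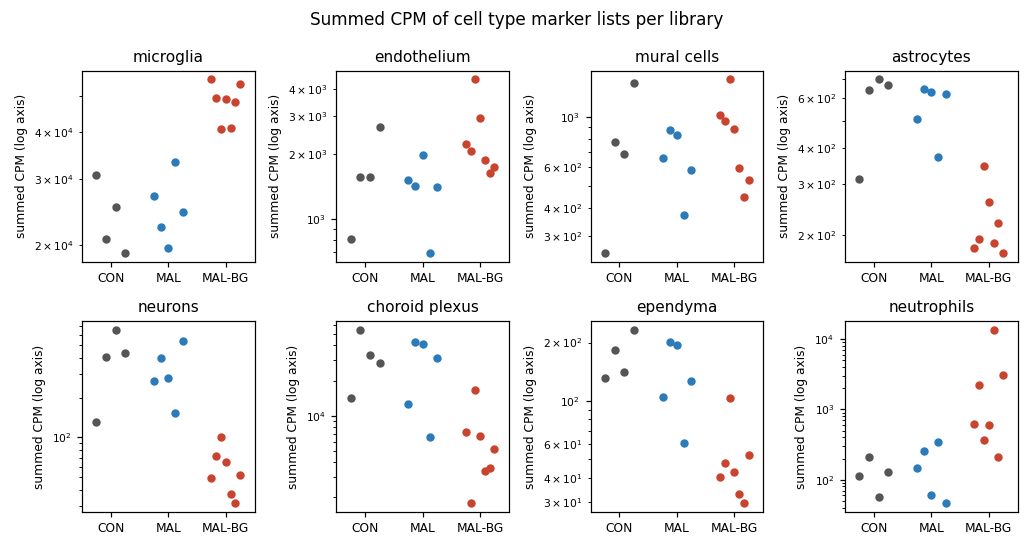
Summed CPM (log axis) of 8 lists of cell type markers in each library of CON, MAL, and MAL-BG, 1 point per library. Microglia markers were higher in all 7 MAL-BG libraries (40676 to 55315 CPM) than in all others, and neuron markers were lower (31.8 to 100.1 CPM).

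The heavy chain Slc3a2 and its light chain Slc7a8 had the highest mean levels per length in every group. Slc3a2 led with a mean level per kilobase of 97.4 ± 11.6 (CON), 91.6 ± 5.78 (MAL), and 139 ± 25.6 (MAL-BG) (SD). Slc7a8, which encodes the neutral amino acid exchanger LAT2, followed at 69.5 ± 22.6 (CON), 70.8 ± 14.5 (MAL), and 107 ± 10.4 (MAL-BG). In CON these 2 genes lay 1 SD or more above the next genes, Slc7a10, Slc36a1, Slc38a2, Slc38a3, Slc7a5, Slc38a10, and Slc7a7, whose means of 22.4 to 33.2 per kilobase did not differ from each other beyond their SDs. The order changed in MAL-BG, where Slc7a5 (49.6 ± 6.15) and Slc7a7 (43.1 ± 7.16) were the third and the fourth, and Slc7a10 fell from a mean of 33.2 in CON to 6.96 ± 5.79. Slc7a3, a cationic amino acid transporter, was the lowest member with a mean of 0.327 per kilobase over 16 libraries.

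**Figure D2:**
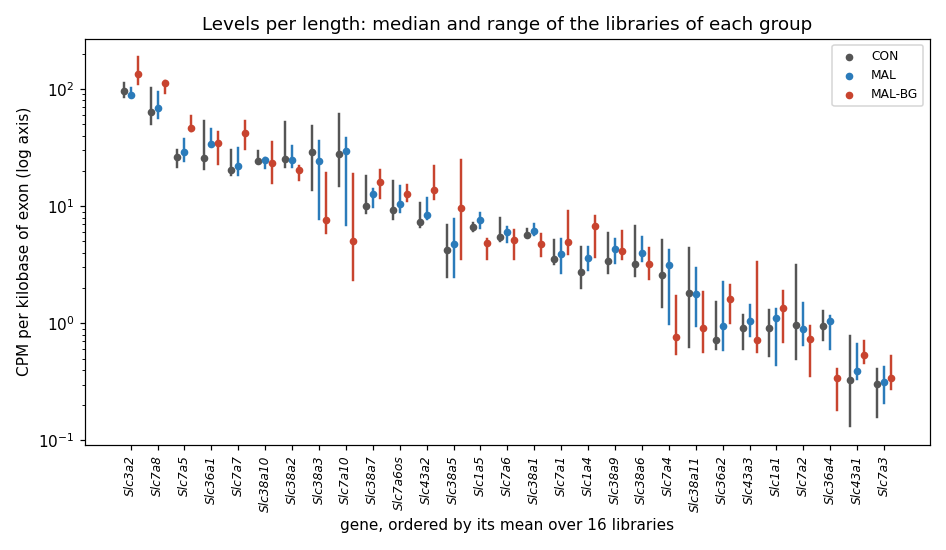
Level per length (CPM per kilobase of exon, log axis) of the 29 genes, ordered by their mean over 16 libraries. Points are group medians and lines run from the lowest to the highest library of each group. Slc3a2 is highest in all 3 groups, and the MAL-BG range of Slc36a4 lies below both others.

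MAL-BG changed the transporter transcripts in both directions. Against CON, 12 of 29 genes were called (41.4%), 6 higher and 6 lower, where a gene was called at an adjusted p under 0.05 when its log2 fold change exceeded 0.58 in either direction. Over all 14565 genes tested, 33.1% were called in this comparison, 11.4% higher and 21.7% lower. Against MAL, 12 of 29 were called, 7 higher and 5 lower, beside 30.4% of all genes (10.2% higher and 20.2% lower). The median log2 fold change of the 29 genes was 0.23 against CON and 0.09 against MAL, beside −0.04 and −0.03 over all genes. The 7 MAL-BG libraries stand in both comparisons, so the values are given side by side and are not independent. With libraries centred on the mean log2 CPM of all genes, the median of all genes moved to 0.21 against CON and 0.19 against MAL, higher calls made up 57.8% of all calls instead of 34.4% against CON (58.3% instead of 33.4% against MAL), and 10 transporter genes were called higher and 4 lower against CON. Without CON library 1 and MAL library 4, 11 transporter genes were higher and 7 lower against CON, beside 2532 higher and 3150 lower among all genes. Without MAL-BG libraries 3 and 5, 6 were higher and 7 lower, beside 1716 and 3446 among all genes. With all libraries, 1659 of all genes were higher and 3161 lower. The 2 fits without these libraries were added after the data had been seen.

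**Figure D3:**
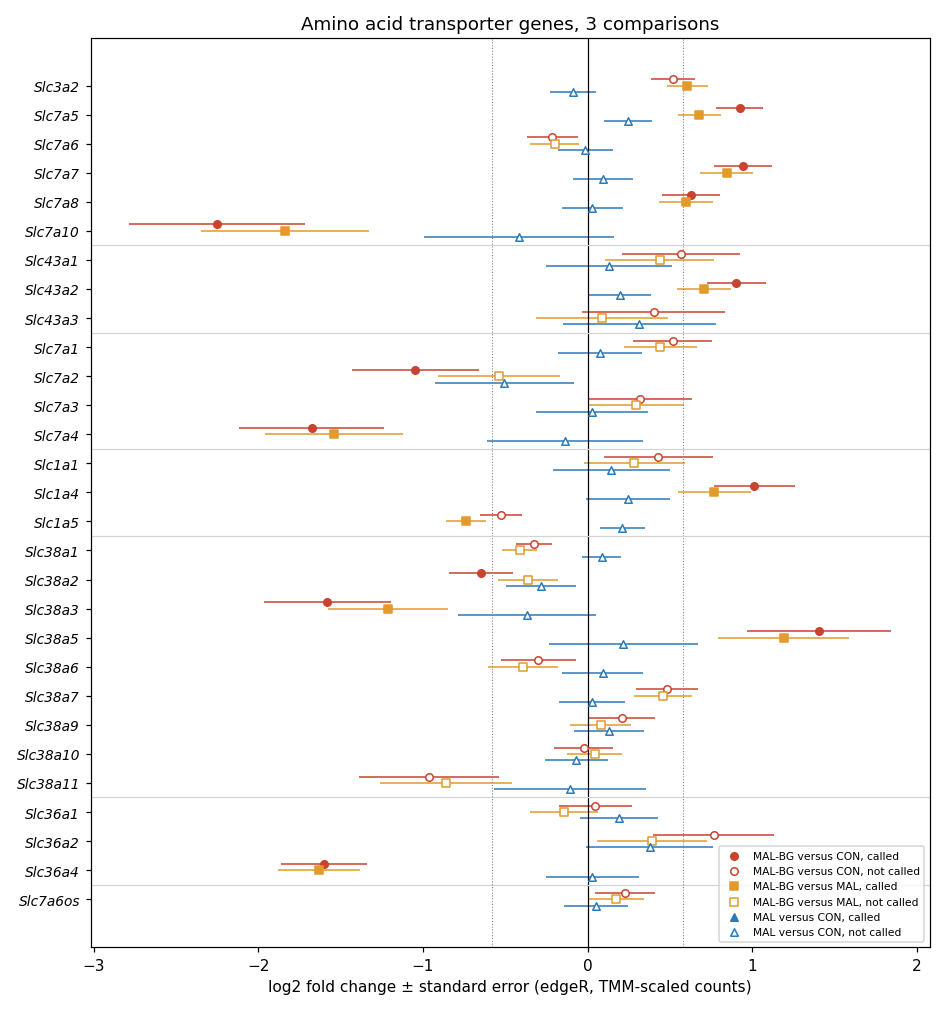
Log2 fold change with its standard error (edgeR) for 29 genes, grouped by role, in MAL-BG versus CON (circles), MAL-BG versus MAL (squares), and MAL versus CON (triangles). Filled symbols are calls, and dotted lines mark a log2 fold change of 0.58 in either direction. Slc7a10 lies furthest left (−2.25 against CON) and Slc38a5 furthest right (1.41), and no MAL versus CON symbol is filled.

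A set of 3 light chains of the exchanger complex and the heavy chain were higher in MAL-BG. Slc7a5 (chr8:121881150-121907694, minus strand, GRCm38) encodes LAT1, which carries large neutral amino acids such as leucine and is the main route for these across brain endothelium. Slc7a5 was measured at 94.2, 80.6, 101, and 112 CPM in CON libraries 1 to 4, at 137, 107, 139.8, 90.2, and 101 CPM in MAL libraries 1 to 5, and at 161 to 218 CPM (median 174) in the 7 MAL-BG libraries. All 7 MAL-BG libraries lay above the other 9, which held for 6.17% of all genes tested. Its log2 fold change was 0.92 (SE 0.141, adjusted p = 1.31e-04) against CON and 0.68 (SE 0.129, adjusted p = 6.56e-04) against MAL. In CON and MAL, but not in MAL-BG, the library highest in Slc7a5 was also the highest in endothelium markers. The lowest library matched in 1 group. The part of the endothelium markers in the rise of Slc7a5 was not tested.

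Slc3a2 (chr19:8706882-8723369, minus strand) encodes CD98, the heavy chain that brings these exchangers to the cell surface. Its level was 397, 325, 351, and 301 CPM in CON libraries 1 to 4, 313, 311, 315, 359, and 318 CPM in MAL libraries 1 to 5, and 389 to 658 CPM (median 472) in the 7 MAL-BG libraries. Every MAL-BG library lay above the MAL libraries (7.86% of all genes), while CON library 1 was above the lowest MAL-BG library. The log2 fold change was 0.52 (SE 0.134, adjusted p = 0.00533) against CON and 0.61 (SE 0.125, adjusted p = 0.00119) against MAL, so only the comparison with MAL passed the fold threshold, and without MAL-BG library 1 it was 0.56 there. Against CON the threshold was passed with centring (0.76), with offsets for length and GC content (0.64), and without CON library 1 (0.59) or MAL-BG library 2 (0.63).

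Slc7a8 (chr14:54722209-54781946, minus strand) had the highest mean level per length among the light chains in each group, although Slc7a10 was above it in CON library 2. Slc7a8 was measured at 507, 290.4, 343, and 249.9 CPM in CON libraries 1 to 4, 376, 305, 283, 468, and 342 CPM in MAL libraries 1 to 5, and 464 to 585 CPM (median 567) in the 7 MAL-BG libraries. CON library 1 and MAL library 4 overlapped the MAL-BG range, and the remaining CON and MAL libraries were below it. The fold change was 0.63 (SE 0.177, adjusted p = 0.00880) against CON and 0.60 (SE 0.164, adjusted p = 0.00758) against MAL. It fell under the fold threshold without CON library 2 or 4 (0.55 and 0.50) and, against MAL, without MAL library 2 or 3 (0.55 and 0.53).

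Slc7a7 (chr14:54369442-54417780, minus strand) encodes y+LAT1, which exports cationic amino acids such as arginine in exchange for neutral ones. It was detected at 100.05, 61.3, 74.8, and 60.8 CPM in CON libraries 1 to 4, 87.3, 73.2, 61.6, 103, and 71.7 CPM in MAL libraries 1 to 5, and 101 to 178 CPM (median 139) in the 7 MAL-BG libraries. The MAL-BG libraries lay above all CON libraries (9.83% of all genes), and MAL library 4 reached into their range. The change was 0.94 (SE 0.175, adjusted p = 5.29e-04) against CON and 0.85 (SE 0.161, adjusted p = 6.62e-04) against MAL. In all 3 groups, the library with the highest Slc7a7 level was also the highest in summed microglia markers, and the lowest was also the lowest. This held at both ends in all groups for 2 of 406 pairs of the 29 genes with 14 marker lists. The comparison was made after the values had been seen. For Slc3a2 and Slc7a8, the highest library was also the highest in microglia markers in all 3 groups. Their lowest library matched in 1 group for Slc3a2 and in 2 groups for Slc7a8. The part of the microglia share in the rise of Slc7a7, Slc3a2, and Slc7a8 was not tested. Exons of Slc7a7 share 232 bases with Oxa1l on the opposite strand, and the strand setting of the counting is not given in the sources used here.

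**Figure D4:**
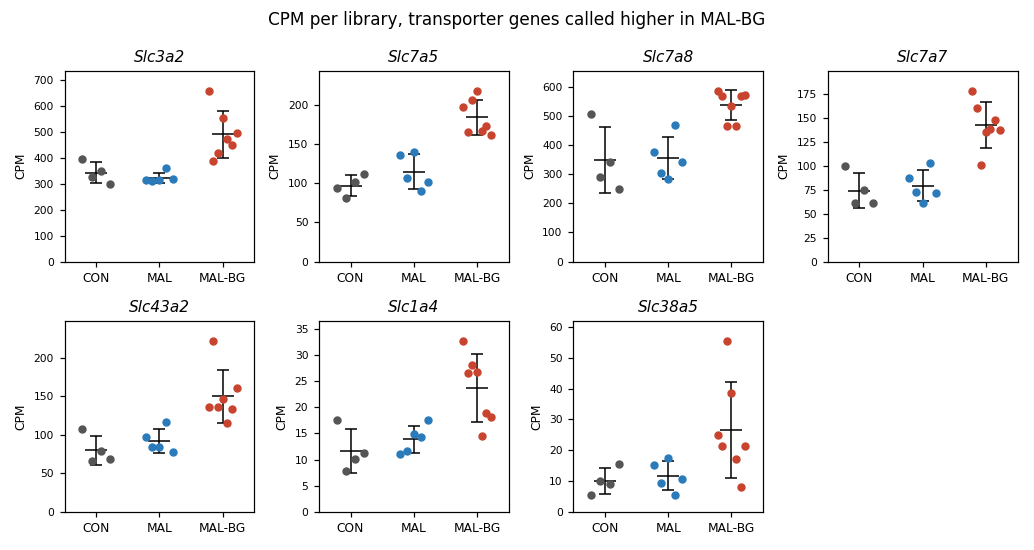
CPM per library (points), mean (long dash), and SD (bars) of the 7 genes called higher in MAL-BG against CON or MAL, with 7 MAL-BG, 5 MAL, and 4 CON libraries. Slc7a5 is the gene whose 7 MAL-BG points (161 to 218 CPM) all lie above the other 9.

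Another light chain moved the other way. Slc7a10 (chr7:35186385-35201114, plus strand) encodes Asc-1, an exchanger of small neutral amino acids including glycine and D-serine. Its level was 31.6, 129.9, 70.5, and 48.0 CPM in CON libraries 1 to 4, 29.6, 76.0, 80.1, 14.7, and 62.0 CPM in MAL libraries 1 to 5, and 4.90 to 39.8 CPM (median 10.7) in the 7 MAL-BG libraries. The spread within groups was wide, and CON library 1, MAL library 1, and MAL library 4 fell within the MAL-BG range. Slc7a10 had the largest fall among the 29 genes, with −2.25 (SE 0.534, adjusted p = 0.00295) against CON and −1.84 (SE 0.510, adjusted p = 0.00818) against MAL. In all 3 groups its lowest library was the library lowest in choroid plexus markers, and in CON and MAL-BG its highest library (CON library 2 and MAL-BG library 3) was also the highest in these markers. The part of the choroid plexus and neuron markers in this fall was not tested. Slc7a10 shares 377 exon bases with Lrp3 on the opposite strand. Slc7a6, which encodes y+LAT2, was not called, with 27.2 ± 6.12 (CON), 27.0 ± 3.25 (MAL), and 23.5 ± 4.10 (MAL-BG) CPM, and its log2 fold change of −0.21 against CON and −0.20 against MAL turned to 0.026 and 0.020 with centring on the mean log2 CPM.

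Levels of the light chains and the heavy chain were also set side by side. The summed level per kilobase of Slc7a5, Slc7a6, Slc7a7, Slc7a8, Slc7a10, and the excluded Slc7a11 was 127 to 180.1 in CON, 153 to 163 in MAL, and 189.8 to 235 in MAL-BG. Divided by Slc3a2, this sum gave a ratio of 1.62 ± 0.130 (CON), 1.72 ± 0.0756 (MAL), and 1.56 ± 0.228 (MAL-BG, SD), and the ratios differed by less than the spread within MAL-BG. The make-up of the sum differed. Slc7a10 supplied 8.32 to 37.1% of it in CON, 4.25 to 24.04% in MAL, and 1.09 to 9.33% in MAL-BG. Slc7a7 supplied 11.1 to 16.8% in CON, 11.8 to 19.0% in MAL, and 15.1 to 22.9% in MAL-BG, and Slc7a5 supplied 13.1 to 23.7%, 14.9 to 23.9%, and 20.6 to 27.6%.

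Among the carriers that work without a heavy chain by facilitated diffusion, Slc43a2 was higher in MAL-BG. Slc43a2 (chr11:75531694-75577575, plus strand) encodes LAT4, a carrier of branched-chain amino acids, phenylalanine, and methionine. It was measured at 107, 66.0, 79.3, and 68.4 CPM in CON libraries 1 to 4, 97.6, 84.1, 84.0, 117, and 77.3 CPM in MAL libraries 1 to 5, and 115 to 222 CPM (median 137) in the 7 MAL-BG libraries. All MAL-BG libraries lay above CON, and MAL library 4 was above the lowest MAL-BG library. The log2 fold change was 0.90 (SE 0.179, adjusted p = 8.51e-04) against CON and 0.71 (SE 0.165, adjusted p = 0.00269) against MAL. Exons of Slc43a2 share 922 bases with the antisense gene Gm45606. Slc43a1, the related LAT3, was not called, at 2.23 ± 1.58 (CON), 2.45 ± 0.764 (MAL), and 3.32 ± 0.563 (MAL-BG) CPM. Slc43a3 was not called either, and its MAL-BG mean was raised by MAL-BG library 5, which was measured at 14.8 CPM beside 2.55 to 5.53 CPM in the other 6 and which also had the highest neutrophil marker sum. Its log2 fold change of 0.40 against CON became −0.13 without that library.

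None of the cationic amino acid transporters of the Slc7 family was called higher with TMM scaling. Slc7a4 was called lower in both comparisons and Slc7a2 only against CON, while Slc7a1 and Slc7a3 were not called. Slc7a4 (chr16:17572018-17583214, minus strand), a relative of the arginine carriers with no established substrate, was measured at 5.76, 21.4, 13.004, and 8.63 CPM in CON libraries 1 to 4, 4.09, 15.9, 17.6, 4.83, and 12.98 CPM in MAL libraries 1 to 5, and 2.26 to 7.17 CPM (median 3.19) in the 7 MAL-BG libraries. CON library 1 and MAL libraries 1 and 4 lay within the MAL-BG range. The change was −1.68 (SE 0.439, adjusted p = 0.00561) against CON and −1.54 (SE 0.419, adjusted p = 0.00725) against MAL. In CON and MAL-BG the library highest in Slc7a4 was also the highest in choroid plexus markers, and the lowest library matched in 1 group. The part of these markers in the fall of Slc7a4 was not tested. Slc7a4 shares 554 exon bases with P2rx6 on the opposite strand.

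Slc7a2 (chr8:40862396-40922308, plus strand), the inducible arginine carrier CAT2, was at 4.53, 10.1, 7.64, and 29.0 CPM in CON libraries 1 to 4, 5.96, 9.85, 13.5, 8.14, and 7.72 CPM in MAL libraries 1 to 5, and 3.27 to 8.62 CPM (median 6.74) in the 7 MAL-BG libraries. CON library 4, which was also the highest CON library in endothelium and mural markers (2676 and 1399 CPM), stood apart, and CON libraries 1 and 3 lay within the MAL-BG range. The fall of −1.05 (SE 0.388, adjusted p = 0.0368) against CON became −0.26 (adjusted p = 0.550) without that library, the call was also lost without MAL-BG library 1, 2, 4, 6, or 7 (−1.02 to −0.90), with centring (−0.78), and with offsets for length and GC content (−0.58), and the value against MAL was −0.54 (SE 0.370, adjusted p = 0.244). Exons of Slc7a2 share 635 bases with the noncoding gene Gm26584 on the opposite strand. Slc7a1, the broadly expressed arginine carrier CAT1, was not called, with 44.6 ± 10.5 (CON), 47.1 ± 12.5 (MAL), and 63.9 ± 21.7 (MAL-BG) CPM and log2 fold changes of 0.52 (SE 0.239, adjusted p = 0.0880) against CON and 0.44 (SE 0.222, adjusted p = 0.115) against MAL. This depended on the scaling, since Slc7a1 was called higher in both comparisons with centring (0.76 and 0.66) and with the offsets (1.03 and 0.94), and also against CON without CON library 4 (0.69) or MAL-BG library 2 or 7 (0.64 and 0.65). The highest value of Slc7a1 in MAL-BG, 104 CPM, came from library 3. Among the MAL-BG libraries it was highest in endothelium, mural, choroid plexus, ependyma, astrocyte, neuron, and oligodendrocyte markers alike. Slc7a3 was not called, at 1.11 ± 0.385 (CON), 1.13 ± 0.328 (MAL), and 1.39 ± 0.316 (MAL-BG) CPM.

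Within the Slc1 family, the 2 neutral amino acid exchangers changed in opposite directions. Slc1a4 (chr11:20302180-20332713, minus strand) encodes ASCT1, which carries alanine, serine, and cysteine. Its values were 17.6, 7.79, 10.1, and 11.3 CPM in CON libraries 1 to 4, 11.2, 11.6, 14.8, 14.3, and 17.5 CPM in MAL libraries 1 to 5, and 14.5 to 32.6 CPM (median 26.7) in the 7 MAL-BG libraries. The groups overlapped, since CON library 1 and MAL libraries 3 and 5 were above the lowest MAL-BG library. The log2 fold change was 1.01 (SE 0.244, adjusted p = 0.00324) against CON and 0.77 (SE 0.223, adjusted p = 0.0105) against MAL.

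Slc1a5 (chr7:16781340-16798274, plus strand) encodes ASCT2, a glutamine exchanger. It was measured at 29.9, 27.9, 25.7, and 27.3 CPM in CON libraries 1 to 4, 35.6, 36.3, 29.3, 31.9, and 27.4 CPM in MAL libraries 1 to 5, and 14.9 to 22.1 CPM (median 20.1) in the 7 MAL-BG libraries. All 7 MAL-BG libraries lay below the other 9, as for 6.36% of all genes. Its log2 fold change was −0.53 (SE 0.128, adjusted p = 0.00358) against CON and −0.74 (SE 0.120, adjusted p = 2.14e-04) against MAL, past the fold threshold only against MAL, and −0.52 there with centring on the mean log2 CPM and −0.54 with offsets for length and GC content. Slc1a1, the neuronal glutamate transporter EAAC1, was not called, with 7.53 ± 2.75 (CON), 8.34 ± 2.87 (MAL), and 10.1 ± 3.71 (MAL-BG) CPM, but was called higher with offsets for length and GC content (0.87 against CON and 0.72 against MAL, from 0.43 and 0.28). Exons of Slc1a1 share 2631 bases with 4430402I18Rik on the opposite strand.

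**Figure D5:**
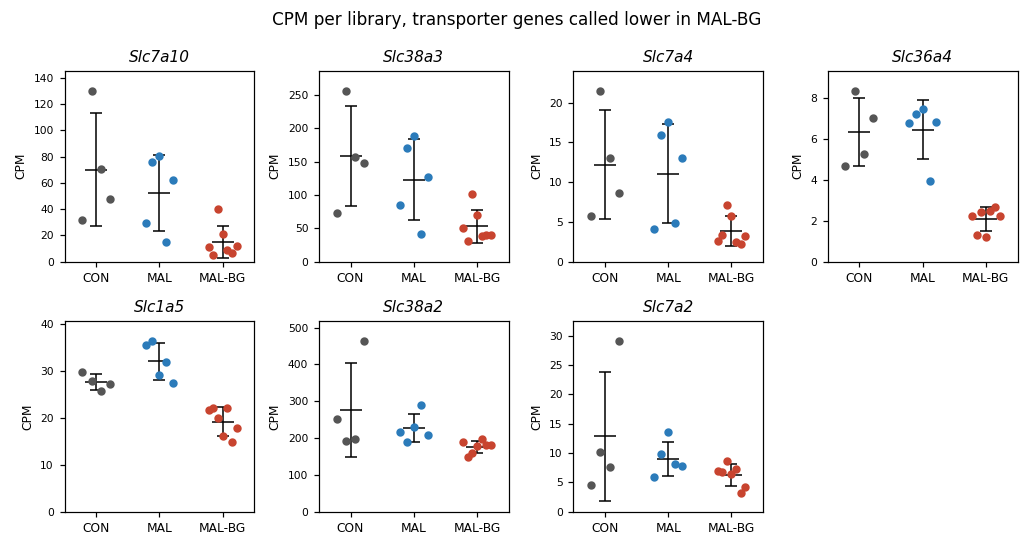
CPM per library (points), mean (long dash), and SD (bars) of the 7 genes called lower in MAL-BG against CON or MAL. For Slc36a4 and Slc1a5 all MAL-BG points lie below those of CON and MAL, and for Slc38a2 and Slc7a2 1 CON library lies far above the rest.

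The Slc38 family of glutamine and neutral amino acid transporters held the largest rise. Slc38a5 (chrX:8271133-8280179, plus strand) encodes SNAT5, a system N carrier that moves glutamine in either direction. Its level was 5.61, 10.02, 8.98, and 15.6 CPM in CON libraries 1 to 4, 15.3, 9.399, 17.5, 5.56, and 10.8 CPM in MAL libraries 1 to 5, and 7.96 to 55.3 CPM (median 21.4) in the 7 MAL-BG libraries. The lowest MAL-BG library (library 6) lay within the CON and MAL ranges, and the other 6 were at 17.3 CPM or more. The log2 fold change was 1.41 (SE 0.438, adjusted p = 0.0153) against CON and 1.19 (SE 0.399, adjusted p = 0.0229) against MAL, and the adjusted p against MAL rose to 0.0556, 0.0530, and 0.0509 without MAL library 2, 4, or 5. In all 3 groups the library highest in Slc38a5 was the highest in summed endothelium markers and the lowest was the lowest, the other of the 2 pairs noted for Slc7a7. Endothelium markers summed to 809 to 2676 CPM in CON, 697 to 1986 in MAL, and 1630 to 4418 in MAL-BG, and 3 of 11 were called higher against CON. Their part in the rise of Slc38a5 was not tested.

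Slc38a3 (chr9:107650634-107669530, minus strand) encodes SNAT3, the other system N carrier, known from astrocytes. It was at 72.3, 256, 157, and 149 CPM in CON libraries 1 to 4, 84.8, 171, 189, 40.9, and 127 CPM in MAL libraries 1 to 5, and 31.2 to 101 CPM (median 39.9) in the 7 MAL-BG libraries. CON library 1 and MAL libraries 1 and 4 overlapped MAL-BG. The change was −1.58 (SE 0.385, adjusted p = 0.00355) against CON and −1.21 (SE 0.367, adjusted p = 0.0134) against MAL. As for Slc7a10, the lowest library of each group was the lowest in choroid plexus markers. Astrocyte markers summed to 314 to 696 CPM in CON, 374 to 644 in MAL, and 173 to 348 in MAL-BG, and their part in the fall was not tested.

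Slc38a2 (chr15:96687392-96699730, minus strand), the system A carrier SNAT2 that cells induce when amino acids are short, was at 252, 191, 197, and 462 CPM in CON libraries 1 to 4, 218, 189, 229, 289, and 209 CPM in MAL libraries 1 to 5, and 148 to 196 CPM (median 181) in the 7 MAL-BG libraries. CON library 4 was again highest, and without it the fall against CON of −0.65 (SE 0.194, adjusted p = 0.0125) became −0.28 (adjusted p = 0.120), while leaving out MAL-BG library 2 gave −0.55. The call against CON was also lost with centring (−0.39, adjusted p = 0.122) and with offsets for length and GC content (−0.22, adjusted p = 0.396). Against MAL the value was −0.36 (SE 0.183, adjusted p = 0.115), and it turned to 0.050 with these offsets. The other system A carrier, Slc38a1, had an adjusted p of 0.0239 against CON and 0.00436 against MAL, but its log2 fold changes of −0.33 and −0.41 were under the threshold and turned to 0.31 and 0.22 with the same offsets. Slc38a11, an orphan member, was not called at 9.34 ± 6.88 (CON), 8.69 ± 3.99 (MAL), and 4.78 ± 1.87 (MAL-BG) CPM, and was called lower against CON (−1.27) without CON library 1.

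Among the 29 genes, none of the carriers known mainly from lysosomes was called with TMM scaling. Slc38a7 was called higher with centring and with the offsets, and Slc38a9 with the offsets. Outside these families, the lysosomal carriers Pqlc2 (0.62 against CON) and Slc15a3 (0.63 against MAL) were called higher with TMM scaling. Slc15a4 was called higher in both comparisons (0.62 against CON and 0.60 against MAL). Mfsd12, also a lysosomal carrier, was called lower in both (−1.04 against CON and −1.14 against MAL). Slc38a10 and Slc38a6, which are less well described, were not called either. Slc38a7, which exports glutamine and asparagine from lysosomes, had levels per kilobase of 11.7 ± 4.22 (CON), 11.9 ± 1.91 (MAL), and 16.4 ± 2.74 (MAL-BG). Its log2 fold change was 0.49 (SE 0.188, adjusted p = 0.0450) against CON and 0.46 (SE 0.175, adjusted p = 0.0424) against MAL, under the fold threshold in both, and it was called with centring (0.71 and 0.68), with the offsets (0.69 and 0.63), and against CON without CON library 1 (0.77). Slc36a1, the lysosomal proton-coupled carrier PAT1, had a level per kilobase of 31.6 ± 15.1 (CON), 36.0 ± 5.50 (MAL), and 32.7 ± 6.56 (MAL-BG) and was not called (0.05 and −0.14 on the log2 scale, the second turning to 0.084 with centring). Slc38a10, at 25.5 ± 2.65 (CON), 24.3 ± 1.84 (MAL), and 25.1 ± 7.30 (MAL-BG) per kilobase, was not called, and its log2 fold changes of −0.02 and 0.05 changed sign under several settings. Slc38a9, the lysosomal arginine sensor of mTORC1, was at 64.0 ± 23.4 (CON), 70.1 ± 13.2 (MAL), and 74.1 ± 15.2 (MAL-BG) CPM and was not called, with log2 fold changes of 0.21 and 0.08, but was called higher with the offsets (0.77, adjusted p = 0.0184 against CON and 0.66, adjusted p = 0.0267 against MAL). Slc38a6 was not called at 30.4 ± 15.0 (CON), 32.5 ± 6.19 (MAL), and 24.7 ± 5.003 (MAL-BG) CPM, and its value of −0.30 against CON turned to 0.10 without CON library 1.

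Slc36a4 was the exception among the proton-coupled carriers. Slc36a4 (chr9:15709738-15743361, plus strand) encodes PAT4, a carrier with high affinity for proline and tryptophan. It was measured at 4.68, 8.35, 5.28, and 7.04 CPM in CON libraries 1 to 4, 6.81, 7.24, 7.49, 3.95, and 6.85 CPM in MAL libraries 1 to 5, and 1.18 to 2.67 CPM (median 2.24) in the 7 MAL-BG libraries. Every MAL-BG library was below every CON library (11.1% of all genes) and every MAL library (8.95% of all genes). The fall was −1.60 (SE 0.261, adjusted p = 2.10e-04) against CON and −1.63 (SE 0.248, adjusted p = 1.27e-04) against MAL, and it was called under all 26 alternatives in both comparisons. The lowest values of Slc36a4 in CON and MAL came from CON library 1 and MAL library 4. These were also lowest in neuron, astrocyte, choroid plexus, ependyma, endothelium, and mural markers, while the lowest MAL-BG library matched none of these lists. The part of these markers in the fall of Slc36a4 was not tested. Slc36a2, the glycine and proline carrier PAT2, was not called, with 2.92 ± 1.40 (CON), 3.80 ± 2.08 (MAL), and 4.98 ± 1.48 (MAL-BG) CPM. Slc7a6os, the gene that encodes no transporter, was at 10.7 ± 3.82 (CON), 11.1 ± 2.36 (MAL), and 12.5 ± 1.51 (MAL-BG) per kilobase and was not called. Slc7a6 was at 5.96 ± 1.34 (CON), 5.91 ± 0.712 (MAL), and 5.14 ± 0.896 (MAL-BG) per kilobase.

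MAL versus CON gave 0 calls among the 29 genes and 0 (0%) among all 14565 genes with edgeR. At an unadjusted p under 0.05, edgeR found 0 of the 29 genes and 212 of all genes, and DESeq2 found 0 and 241. These counts rested in part on CON library 1, without which edgeR found 3 of the 29 genes and 1086 of all genes at an unadjusted p under 0.05, and without CON library 1 and MAL library 4 the counts were 1 and 641, still with 0 calls. The log2 fold changes of the 29 genes ran from −0.51 (Slc7a2) to 0.38 (Slc36a2), with a median of 0.08 beside −0.02 over all genes. The smallest unadjusted p was 0.113 for Slc7a5, whose level was 97.0 ± 13.1 CPM in CON and 115 ± 22.1 CPM in MAL.

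Of the 3 carriers left out by the rule, 1 was called. Slc1a2, the main astrocyte glutamate transporter, was at 119 ± 61.6 (CON), 135 ± 39.7 (MAL), and 23.9 ± 16.3 (MAL-BG) CPM, with −2.32 (SE 0.424, adjusted p = 4.78e-04) against CON and −2.50 (SE 0.409, adjusted p = 2.22e-04) against MAL on the log2 scale. Slc1a2 and Slc1a3 are also in the astrocyte marker list, and the part of astrocyte cells in the fall of Slc1a2 was not tested. Slc1a3, at 113 ± 14.5 (CON), 126 ± 6.12 (MAL), and 98.1 ± 26.7 (MAL-BG) CPM, and Slc7a11, at 10.3 ± 4.36 (CON), 11.3 ± 3.79 (MAL), and 6.84 ± 2.71 (MAL-BG) CPM, were not called.

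With TMM scaling, more of the other amino acid carriers were called lower than higher, as for all genes. This imbalance was lost with centring and with the offsets, and was kept with upper-quartile scaling and with DESeq2 size factors. Of 35 listed carriers outside these families, 26 were tested, and 3 were higher and 10 lower in MAL-BG against CON (50%, beside 33.1% of all genes, 11.4% higher and 21.7% lower), with a median log2 fold change of −0.19. Against MAL, 3 were higher and 9 lower (46.2%, beside 30.4% of all genes, 10.2% higher and 20.2% lower). With centring, 8 were higher and 7 lower against CON and 7 and 7 against MAL, and with the offsets 8 and 7 against CON and 6 and 6 against MAL. Over all genes, centring gave 3296 higher and 2405 lower against CON and 3116 and 2227 against MAL. The offsets gave 3040 and 2417 against CON and 2818 and 2236 against MAL over all genes. With upper-quartile scaling, 3 were higher and 10 lower against CON (1567 and 3214 of all genes), and with DESeq2 size factors 4 and 10 (1767 and 3095 of all genes). The largest falls were Slc17a7, the vesicular glutamate transporter of neurons, at −4.93 (SE 0.499, adjusted p = 6.15e-06) against CON, and Tmem27, a partner of epithelial amino acid transporters, at −2.97 (SE 0.614, adjusted p = 0.00115). Slc17a7 is also in the neuron marker list. The largest rises were Slc16a10, an aromatic amino acid carrier, at 0.79 (SE 0.171, adjusted p = 0.00151), and Pqlc2, the lysosomal exporter of cationic amino acids, at 0.62 (SE 0.184, adjusted p = 0.0120). Against MAL the largest rises were Slc15a3 (0.63), a lysosomal carrier of peptides and histidine, and Slc25a15 (0.61), the mitochondrial ornithine carrier.

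Enzymes of amino acid metabolism were called at a share near that of all genes. Of 40 listed, 34 were tested, and 3 were higher and 7 lower in each MAL-BG comparison (29.4%). Over all genes, 33.1% were called against CON and 30.4% against MAL. With centring, 8 were higher and 6 lower against CON and 6 and 5 against MAL, beside 3296 and 2405 of all genes against CON and 3116 and 2227 against MAL. Gad2 and Gad1, the enzymes that make GABA and also listed neuron markers, fell most against CON (−4.09 (SE 0.715, adjusted p = 3.41e-04) and −2.09 (SE 0.445, adjusted p = 0.00141)). Against MAL, Gad2 (−3.26) and Cth (−2.45), which makes cysteine, fell most. Arg2, a mitochondrial arginase, rose from 1.02 ± 0.190 CPM in CON and 0.449 ± 0.52598 CPM in MAL to 2.75 ± 1.47 CPM in MAL-BG (1.42 (SE 0.534, adjusted p = 0.0390) against CON and 2.59 (SE 0.537, adjusted p = 0.00124) against MAL).

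Promoters were compared because several of these carriers moved together. RefSeq start sites (GRCm38.p6) were on hand for 20 of the 29 genes, with 27 promoters (none was read for Slc1a5, Slc36a2, Slc38a1, Slc38a3, Slc43a3, Slc7a2, Slc7a3, Slc7a4, or Slc7a5), and the 250 bases before each start were searched on both strands. The E-box CACGTG, a motif read by factors such as TFEB and MYC, was found for 4 genes, Slc36a1, Slc38a7, Slc38a5, and Slc43a1. These were 4 of the 27 promoters, beside 6.02% of 32851 promoters. By the gene bounds of GENCODE M21, the E-boxes of Slc38a7, Slc38a5, and Slc43a1 lie inside the gene, and that of Slc36a1 lies before it. The promoters are therefore defined by the RefSeq starts only. The motif is its own reverse complement and overlaps no other motif searched. Windows of 54 bases around it are shown so that the letters beside it can be compared, 5′ to 3′ on the strand of the gene, with the E-box in capitals. They lie at chr11:55204285-55204338 (plus strand), chr8:95853496-95853549 (minus strand), chrX:8271327-8271380 (plus strand), and chr2:84840235-84840288 (plus strand), and the motif begins 31, 34, 30, and 64 bases before the start, respectively.
Slc36a1: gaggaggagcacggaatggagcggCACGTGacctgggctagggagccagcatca
Slc38a7: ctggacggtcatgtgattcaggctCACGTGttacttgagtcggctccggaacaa
Slc38a5: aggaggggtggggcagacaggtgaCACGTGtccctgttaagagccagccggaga
Slc43a1: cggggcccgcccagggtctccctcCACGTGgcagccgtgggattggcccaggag
Of these 4 genes, Slc38a5 was called higher in MAL-BG and the other 3 were not called with TMM scaling, 2 of them, Slc36a1 and Slc38a7, being lysosomal carriers. A match is a description of the letters and not evidence of a bound site.

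The composite element TGATGNAA, bound by ATF4 with C/EBP partners in genes induced by amino acid shortage, was found before a start of 1 gene, Slc7a7, and in 3.45% of 32851 promoters. Slc7a7 has 5 RefSeq starts, 2 of which have the motif. The one at chr14:54417945-54418194 (minus strand) is shown with the motif in capitals, where it begins 141 bases before the start. The promoters of Slc7a10 at chr7:35186135-35186384 (plus strand) and Slc36a4 at chr9:15709488-15709737 (plus strand), the largest fall and a fall without overlap between groups, held neither sequence in these 250 bases and are printed beside it.
Slc7a7: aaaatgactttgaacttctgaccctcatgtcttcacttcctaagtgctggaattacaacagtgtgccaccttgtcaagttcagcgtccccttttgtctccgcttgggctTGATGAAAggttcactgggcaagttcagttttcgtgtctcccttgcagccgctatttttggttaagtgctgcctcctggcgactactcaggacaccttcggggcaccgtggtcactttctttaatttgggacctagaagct
Slc7a10: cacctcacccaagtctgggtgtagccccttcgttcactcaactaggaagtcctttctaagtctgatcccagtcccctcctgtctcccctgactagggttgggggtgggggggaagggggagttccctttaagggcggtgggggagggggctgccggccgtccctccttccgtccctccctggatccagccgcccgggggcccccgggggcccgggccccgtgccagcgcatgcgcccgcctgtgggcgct
Slc36a4: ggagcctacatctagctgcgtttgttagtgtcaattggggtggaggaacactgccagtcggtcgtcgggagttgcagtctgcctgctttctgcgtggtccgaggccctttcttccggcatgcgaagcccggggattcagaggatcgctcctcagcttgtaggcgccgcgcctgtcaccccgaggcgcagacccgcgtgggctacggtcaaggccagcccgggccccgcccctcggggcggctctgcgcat
The G and C share of these 3 windows was 48.8%, 69.6%, and 66.0%, respectively.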

How the data were processed

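RNA-Seq of CD11b+ cells was used, with 7 MAL-BG, 5 MAL, and 4 CON libraries. The authors aligned paired reads of a stranded mRNA kit to the GRCm38.p6 genome by STAR and obtained gene counts by HTSeq. They deposited a table of raw counts with 24421 rows, and the strand option of the counting is not given in the sources used here. Table columns name a group and a running number that matches no sample title, so columns were assigned to groups only. The authors' own model held a batch term, but the columns do not show which library belongs to which batch, so no batch term was fitted and the p-values ignore this factor.

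The 14565 genes that exceeded 10 counts in 4 or more of 16 libraries were scaled by TMM and fitted in 1 model of the 3 groups by edgeR 4.0.16 (quasi-likelihood test, R 4.3.3), with Benjamini-Hochberg adjustment over all genes. A gene was called at an adjusted p under 0.05 when its log2 fold change exceeded 0.58 in either direction. The steps were tested on simulated data. Exon lengths and positions were from GENCODE M21, promoter sequences from RefSeq (GRCm38.p6). Precision is set by the spread between libraries, given as SD or standard error (SE).

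The genes and lists were chosen with earlier results of these data known. Every selected gene is named. Called genes are given by library in CON and MAL and by range and median in MAL-BG, the 5 uncalled genes with the highest level per length by group, the others by mean and SD or by range, and of the other carriers and the enzymes the 2 largest rises and falls, of which 1 enzyme is not reported here. Alternatives were other scalings (upper quartile, DESeq2 size factors, centring, offsets for length and GC content with centring, known for 14023 genes), DESeq2 1.42.0, other count filters, no fold threshold, fits of the compared groups only, and each library left out in turn.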

Additional observations from a re-analysis of the deposited data

Results flagged for a closer look

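In each group of each gene, the highest and the lowest library were compared with the rest by Dixon's test, 87 tests in all, which flags about 1 in 20 groups by chance. It marked 8 libraries as far from the others of their group. CON library 1 was high in Slc38a10 (189 CPM, next 158), Slc38a6 (52.6 CPM, next 25.1), and Slc7a6 (36.3 CPM, next 24.9). MAL library 4 was high in Slc3a2 (359 CPM, next 318) and Slc43a1 (3.79 CPM, next 2.30) and low in Slc36a4 (3.95 CPM, next 6.81). MAL library 1 was high in Slc36a1 (258 CPM, next 193), and MAL-BG library 5 in Slc43a3 (14.8 CPM, next 5.53). CON library 1 and MAL library 4 are the libraries that were highest in microglia markers within their groups, and MAL-BG library 5 was the highest in neutrophil markers. The part of these markers in the outlying values was not tested.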

How the results depend on the processing

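Of the 12 genes called against CON, 9 kept the call under all 26 alternatives, and of the 12 called against MAL, 8 did. Slc7a2, Slc38a2, and Slc7a8 lost it against CON under 9, 4, and 2 alternatives. Slc38a5, Slc7a8, Slc1a5, and Slc3a2 lost it against MAL under 3, 3, 2, and 1. Genes called higher against CON numbered 6, but 10 with centring on the mean log2 CPM, 11 with offsets for length and GC content with centring, 11 without CON library 1 and MAL library 4, and 5 to 10 with 1 library left out, the 10 being without CON library 1. Without that library, Slc36a2, Slc38a7, Slc3a2, and Slc43a1 joined the higher calls. Higher calls over all genes also rose under these settings. They numbered 1659 against CON in the main fit, 3296 with centring, and 3040 with the offsets. Without CON library 1 they numbered 2078, and without CON library 1 and MAL library 4 they numbered 2532. Against MAL, 7 transporter genes were higher, and 11 with the offsets, beside 1479 and 2818 of all genes. Enzymes called against CON numbered 10, and 16 without a fold threshold. Over all genes, 1659 were higher and 3161 lower against CON, and 2889 and 3677 without that threshold. MAL versus CON had 0 calls under every alternative.

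Uncalled genes changed direction as follows, as log2 fold changes. With centring, Slc38a10 (0.23) and Slc7a6 (0.026) against CON and Slc36a1 (0.084) and Slc7a6 (0.020) against MAL became positive. With the offsets, Slc38a1 (0.31), Slc38a10 (0.43), and Slc38a6 (0.036) against CON and Slc36a1 (0.10), Slc38a1 (0.22), and Slc38a2 (0.050) against MAL did. Leaving out CON library 1 and MAL library 4 gave Slc38a10 0.14, Slc38a6 0.18, and Slc7a6 0.038 against CON. Leaving out MAL-BG libraries 3 and 5 gave Slc38a10 0.026 and Slc43a3 −0.062 against CON, and Slc43a3 −0.37 against MAL. With 1 library left out, the range against CON was −0.11 to 0.43 for Slc36a1, −0.13 to 0.090 for Slc38a10, −0.46 to 0.10 for Slc38a6, and −0.13 to 0.58 for Slc43a3. Against MAL it was −0.059 to 0.15 for Slc38a10 and −0.44 to 0.26 for Slc43a3. The fits without 2 libraries were added after the data had been seen, and the cause of these changes was not tested. No paired analysis was possible because the running numbers of the table columns match no sample title.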
